A study of Canis lupus familiaris with 13 samples.

Results

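The proteasome subunit genes are the protein-coding genes whose symbol is PSMA, PSMB, PSMC, PSMD or PSME followed by a number. The deposited dog table held 36 such genes among 30951, and no symbol was repeated. Of the 43 known symbols of this form that were looked for, 7 matched no row of the table and were not analysed here: PSMA1, PSMB8, PSMB11, PSMC3, PSMC6, PSMD5 and PSMD6. A filter on low counts left 35 of the 36 genes for testing. The gene that did not pass was PSMA8, the alpha subunit known from testis, which had 0 to 7 counts in each library and 11 counts in all.

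RNA came from biopsies of the biceps femoris, a thigh muscle, of 4 wild type dogs aged 9 to 10 months. The 13 libraries fell into 3 basal libraries (sample 0 of dogs 2, 3 and 4) and 10 insulin stimulated libraries (sample 1 of dogs 1 to 4, sample 2 of dogs 1 to 4, and sample 3 of dogs 1 and 2). Dog 1 had no basal library. The labels do not say what the sample number stands for, and they give neither the insulin dose nor its timing. Biopsies of one dog are repeated samples of one animal, so dog was a block in the comparisons of stimulation and of sample number. Their p-values weigh a difference against the spread between biopsies after the mean of each dog is set aside.

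The proteasome is the large protease that degrades proteins tagged with ubiquitin. Its 20S core is a barrel of outer alpha rings and inner beta rings, and the beta subunits PSMB5, PSMB6 and PSMB7 carry the cutting sites. Interferon-induced PSMB8, PSMB9 and PSMB10 can take the place of these subunits and give the immunoproteasome, which favours peptides for class I antigen presentation. The 19S regulator caps the barrel: ATPases of the PSMC family in its base unfold substrates, and PSMD subunits of base and lid bind and remove ubiquitin. Other caps are PA28, built from PSME1 and PSME2 in the cytoplasm or from PSME3 in the nucleus, and PA200, encoded by PSME4. In skeletal muscle, wasting raises many of these transcripts, and insulin is known to restrain protein breakdown.

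Total counts ranged from 45200416 to 81948641 per library. Levels are given as CPM, a count relative to the size of its library, after TMM scaling, which corrects for the share of reads taken by very abundant transcripts. They are not corrected for transcript length, so a level is compared between libraries and not between genes. In a whole biopsy, fewer cells of a type and less RNA per cell cannot be told apart. Markers of muscle fibres dominated every library, with ACTA1 alone at 91391 to 227160 CPM. The listed leukocyte markers summed to 47.4 to 187 CPM. Among them CD3E (0 to 0.566 CPM) and CD68 (0 to 0.325 CPM) were at or near 0 and S100A8, of granulocytes and monocytes, reached 66.7 CPM. One library stood apart. In dog 1 sample 2 the summed level of the family was 6258 CPM, against 3774 to 5044 CPM in the other 12, and 26 of the 35 tested members (74.3%) had their highest level there, against 19.4% of all tested genes. The gap depends on the scaling: the TMM factor of that library, 0.811, was the lowest of the 13, and scaled by the library total alone its summed level was 5073 CPM, with dog 2 sample 3 next at 4974 CPM. The summed muscle fibre markers were also highest in that library (447952 CPM, against 258625 to 382537), although its DES, MYH1 and MYH7 were the lowest of all 13. The part of these markers in its proteasome levels was not tested. The low end depends on the scaling too. Dog 3 sample 0, lowest at 3774 CPM, had the highest TMM factor, 1.18. Scaled by the library total its summed level was 4439 CPM, and dog 2 sample 1 was lowest at 4117 CPM.

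**Figure D1:**
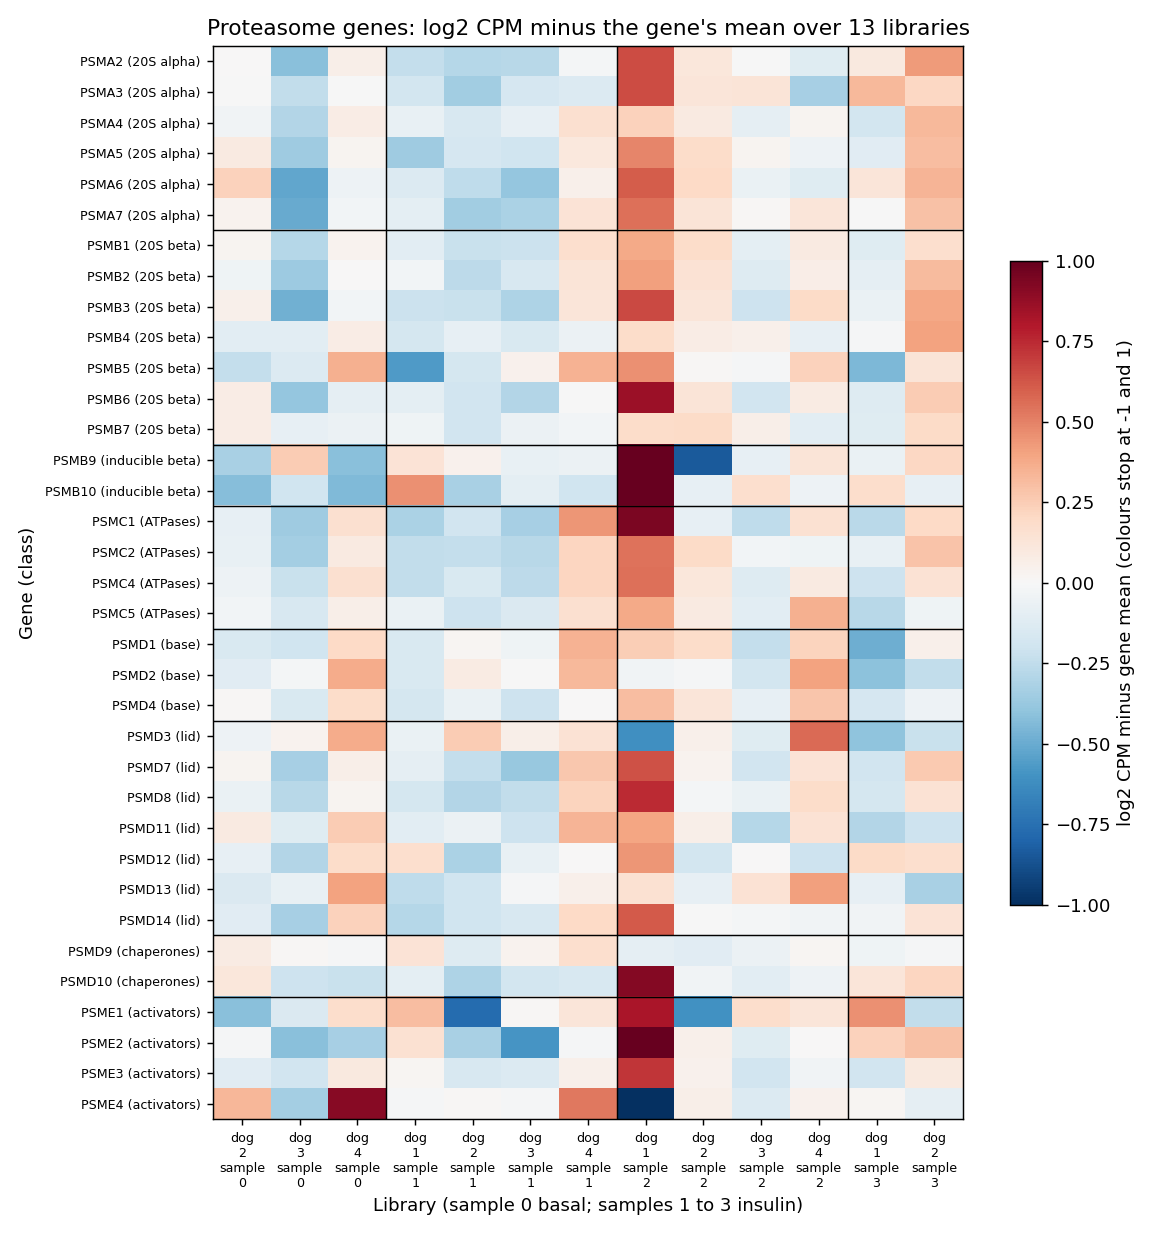
Level of each of the 35 tested proteasome genes (rows, grouped by class) in each of the 13 libraries (columns, by sample number and dog), as log2(CPM + 0.5) minus the mean of the gene over the libraries. Dog 1 sample 2 is the reddest column, with 26 of 35 genes at their highest, against 19.4% of all tested genes. Dog 3 sample 0 holds the lowest level of 13 of the 35, against 11.2% of all tested genes.

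Insulin against basal asked whether proteasome transcripts differ between insulin stimulated and basal biopsies. Every basal biopsy was sample 0 and no insulin biopsy was, so stimulation and sample number cannot be told apart here. No member passed the test. Beside 20 of 14629 genes (0.137%) that did so at an adjusted p under 0.05 in edgeR's quasi-likelihood test with Benjamini-Hochberg adjustment, the count was 0 of 35 members. It was also 0 of 35 at an unadjusted p under 0.05, a level reached by 4.12% of all genes, and 0 of 35 in DESeq2, which called 0.668% of the 15428 genes it gave an adjusted p. Summed over the family, the level was 4364 ± 562 CPM in basal biopsies (SD, n = 3) and 4631 ± 712 CPM in insulin biopsies (SD, n = 10). These SDs hold differences between dogs, and only the insulin group includes dog 1, so they do not measure the spread within dogs. In dog 2 the sum was 4426 CPM in the basal biopsy and 3964, 4742 and 4940 CPM in the insulin biopsies. Dog 3 had 3774 CPM against 3973 and 4254 CPM, and dog 4 had 4893 CPM against 5044 and 4915 CPM. The difference of the group means was 267 CPM, and 155 CPM with scaling by the library total. Of the 35 log2 fold changes 28 were positive and 7 negative, where 7281 of all 14629 tested genes were positive. The members' median was 0.07, against -0.00 for all tested genes, and their fold changes ranged from -0.25 for PSME4 to 0.29 for PSMB10. The lean was uneven between dogs. On the scale of log2(CPM + 0.5), the insulin mean was above the basal value for 20, 30 and 17 of 35 members in dogs 2, 3 and 4. It was above for 47.99%, 49.98% and 50.71% of all tested genes in these dogs. The members' median differences were 0.02, 0.13 and -7.6e-05. The lean in dog 3 depends on the TMM scaling. Scaled by the library total, its sum was 4439 CPM in the basal biopsy, between the 4365 and 4480 CPM under insulin. On that scale dog 2 had 4130 CPM against 4117, 4323 and 4974 CPM, and dog 4 had 4687 CPM against 4736 and 4948 CPM. Taken gene by gene, the 95% interval of this comparison lay within 2-fold in either direction for 35 of 35 members, as it did for 59.1% of all genes. In sample 2 against sample 0 it did so for 33 of 35 members and for 7398 of 14629 genes. There the interval of PSME4 reached down to -1.09 and that of PSMB9 up to 1.06 (log2).

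**Figure D2:**
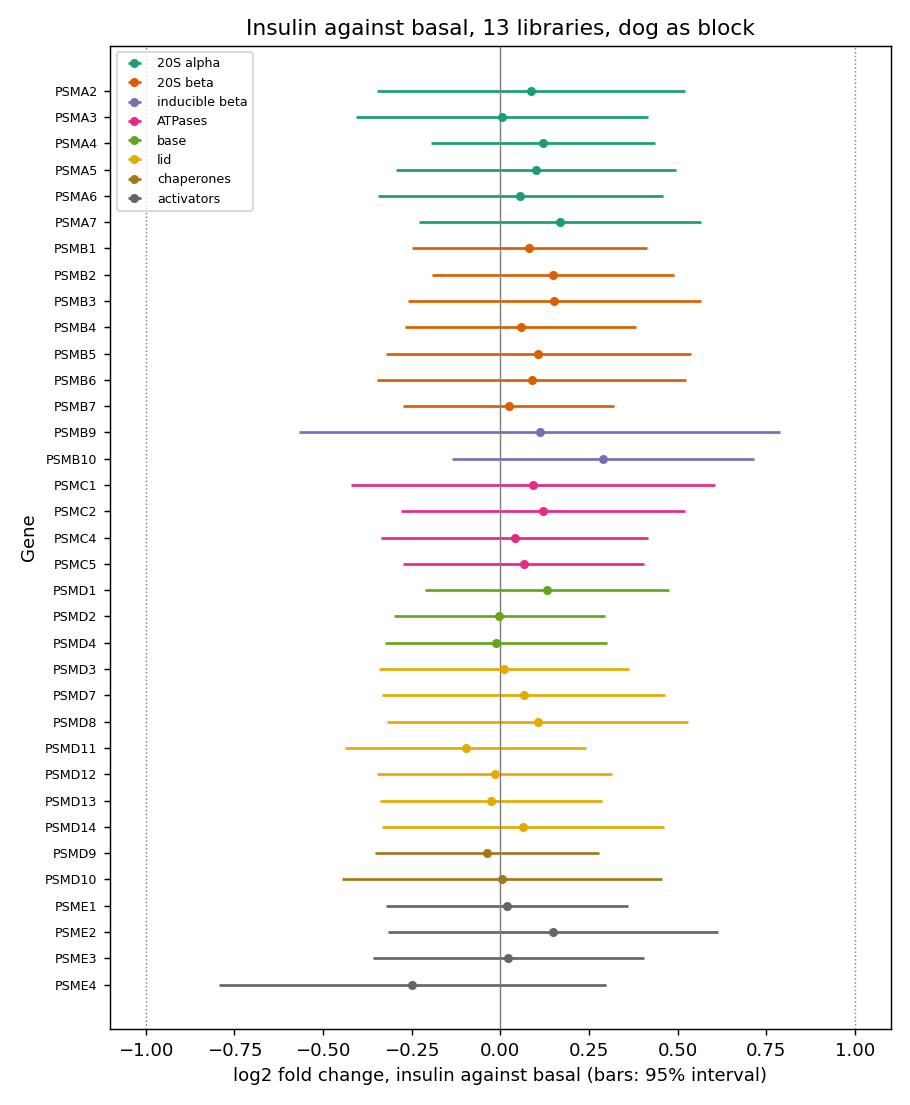
Log2 fold change (x axis) of each tested proteasome gene (y axis) in insulin against basal biopsies with dog as a block; points are estimates, bars are 95% intervals and colours mark the class. Each bar crosses 0, and none reaches the dotted lines at a 2-fold change, the bounds farthest from 0 being -0.79 for PSME4 and 0.79 for PSMB9.

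The alpha ring gates entry to the core. Of its 7 genes present, PSMA2 to PSMA8, the 6 tested had fold changes of 0.00 to 0.17 (log2), and none passed. PSMA7 had the lowest p of the ring. Its level was 294, 201 and 282 CPM in the basal biopsies of dogs 2, 3 and 4, 268, 225, 230.2 and 315 CPM in sample 1 of dogs 1 to 4, 419.9, 314, 289 and 312 CPM in sample 2 and 285 and 351 CPM in sample 3 of dogs 1 and 2. Insulin and basal values overlapped, with the lowest of all in the basal biopsy of dog 3, and the log2 fold change of PSMA7 was 0.17 ± 0.19 (SE; 95% interval -0.23 to 0.57). PSMA3, likewise a ring subunit, was at 175, 148 and 175 CPM in sample 0, 154, 138, 156 and 159 CPM in sample 1, 276, 191, 192 and 139.6 CPM in sample 2 and 220.2 and 204 CPM in sample 3. Its basal values lay inside the insulin range, and its fold change was 0.00 ± 0.19. PSMA8 was counted in 4 libraries: 7 counts in the basal biopsy of dog 3 (0.103 CPM), and 0.0267, 0.0186 and 0.0151 CPM in dog 2 sample 1, dog 3 sample 2 and dog 1 sample 3. It was at 0 in the other 9 libraries and is too thinly counted to compare.

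All 7 constitutive beta genes were present, their fold changes ran from 0.02 to 0.15, and 0 passed. Among the catalytic subunits, PSMB5, of the chymotrypsin-like site, was at 125, 134 and 189 CPM in the basal biopsies of dogs 2, 3 and 4. Under insulin PSMB5 was at 99.3, 130.1, 151 and 187 CPM in sample 1 of dogs 1 to 4, 201, 148, 146 and 173 CPM in sample 2 and 108 and 161 CPM in sample 3 of dogs 1 and 2. Dog 4 was high and dog 1, outside sample 2, was low, so the groups overlapped (fold change 0.11 ± 0.20). PSMB6, of the caspase-like site, was at 212, 154 and 189 CPM in sample 0, 188, 176, 164 and 201 CPM in sample 1, 364, 219.7, 176 and 213 CPM in sample 2 and 184 and 239 CPM in sample 3. Apart from dog 1 sample 2, its insulin biopsies stood between 164 and 239 CPM, a range that holds 2 of the 3 basal values, and its fold change was 0.09 ± 0.20. PSMB7, of the trypsin-like site, was at 148, 133 and 134 CPM in sample 0, 136, 123, 134 and 137 CPM in sample 1, 159, 160.2, 146 and 130.5 CPM in sample 2 and 129 and 160.1 CPM in sample 3. Its 13 values varied little (fold change 0.02 ± 0.14, 95% interval -0.27 to 0.32). The structural subunit PSMB2 was at 143, 114 and 148 CPM in sample 0, 144, 123, 132 and 161 CPM in sample 1, 195, 162, 135 and 154 CPM in sample 2 and 139 and 183 CPM in sample 3, with a fold change of 0.15 ± 0.16.

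Of the inducible subunits, PSMB9 and PSMB10 were measured. PSMB10 (ENSCAFG00000020333) was at 8.29, 9.75 and 8.18 CPM in the basal biopsies of dogs 2, 3 and 4, and at 15.7, 8.94, 10.5 and 9.76 CPM in sample 1 of dogs 1 to 4. It was at 24.8, 10.6, 12.8 and 10.9 CPM in sample 2 and 12.8 and 10.6 CPM in sample 3 of dogs 1 and 2. In dogs 2, 3 and 4 each insulin value was above the basal value of the same dog, yet across dogs the groups overlapped. Group means were 8.74 ± 0.881 CPM (SD, n = 3) and 12.8 ± 4.66 CPM (SD, n = 10), with the 3 highest insulin values in dog 1. The fold change within dogs was 0.29 ± 0.20 (95% interval -0.14 to 0.72; unadjusted p = 0.165 in edgeR), the largest of the family and short of the threshold. With no dog block it was 0.54, again without passing.

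PSMB9 lay beside TAP1, the peptide transporter gene, in the order of genes in the RefSeq table. Its level was 3.42, 5.34 and 3.16 CPM in the basal biopsies of dogs 2, 3 and 4, 4.89, 4.54, 4.16 and 4.21 CPM in sample 1, 9.90, 2.23, 4.13 and 4.86 CPM in sample 2 and 4.19 and 5.17 CPM in sample 3. The highest and the lowest value, in dogs 1 and 2, both came from sample 2, and the fold change of 0.11 ± 0.32 had the widest standard error of the family. It was -0.07 without the basal biopsy of dog 4 and 0.36 without that of dog 3. The log2 ratio of PSMB9 to PSMB6, the subunit it replaces, was -5.57 ± 0.623 in basal biopsies (SD, n = 3) and -5.51 ± 0.410 in insulin biopsies (SD, n = 10). The ratio of PSMB10 to PSMB7 was -3.99 ± 0.200 and -3.53 ± 0.394 on the same scale, ranging in dog 1 from -3.33 to -2.68 and in the other dogs from -4.15 to -3.51. These ratios are of CPM not corrected for length, so only their differences between libraries can be read.

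In the 19S base, the ATPases PSMC1, PSMC2, PSMC4 and PSMC5 had fold changes of 0.04 to 0.12, 4 of 4 positive. The scaffold PSMD1 and PSMD2 and the ubiquitin receptor PSMD4 had fold changes of -0.01 to 0.13. PSMD2 was at 239, 254 and 334 CPM in sample 0 of dogs 2, 3 and 4, 232, 273, 258 and 324 CPM in sample 1, 252, 257, 227 and 342 CPM in sample 2 and 194 and 218 CPM in sample 3. Every value of dog 4 was at or above 324 CPM and every value of the other dogs was at or below 273 CPM. The 7 lid genes, among them PSMD14, the deubiquitinase that frees the substrate, ran from -0.10 for PSMD11 to 0.11 for PSMD8. The lid subunit PSMD13 was at 148, 155 and 215 CPM in sample 0, 137, 142, 162 and 169 CPM in sample 1, 182, 154, 181 and 217 CPM in sample 2 and 154 and 130.5 CPM in sample 3, with a fold change of -0.03 ± 0.15. PSMD9 and PSMD10, chaperones that help build the base and are not part of the finished particle, had fold changes of -0.04 and 0.01. PSMD9 varied least of all members, from 8.73 to 10.8 CPM over the 13 libraries. No gene of the 19S regulator passed.

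Among the activators, PSME4, the PA200 gene, had the lowest fold change of the family. PSME4 (ENSCAFG00000002729) was at 35.9, 22.4 and 54.0 CPM in the basal biopsies of dogs 2, 3 and 4, 28.2, 28.7, 28.2 and 41.2 CPM in sample 1, 11.2, 29.7, 25.8 and 29.3 CPM in sample 2 and 28.8 and 26.7 CPM in sample 3. In dogs 2 and 4 the basal biopsy was the highest and in dog 3 it was the lowest, so the dogs did not share a direction. The means were 37.4 ± 15.9 CPM (SD, n = 3) and 27.8 ± 7.23 CPM (SD, n = 10), with a fold change of -0.25 ± 0.25 (95% interval -0.79 to 0.30). PSME3 was at 42.3, 40.0 and 49.0 CPM in sample 0, 46.4, 41.0, 41.7 and 47.6 CPM in sample 1, 75.4, 47.2, 40.1 and 44.8 CPM in sample 2 and 40.2 and 49.1 CPM in sample 3, and apart from dog 1 sample 2 it kept within 40.0 to 49.1 CPM. The fold changes of PSME1, PSME2 and PSME3 were 0.02 ± 0.16, 0.15 ± 0.22 and 0.02 ± 0.18. That of PSME1 turned to -0.07 with all biopsies of dog 3 left out, and that of PSME3 to -0.03 with all of dog 2 left out.

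Genes that build, bind or control the proteasome were looked at in the same comparison. Of 14 tested assembly and bound factors 1 passed. ZFAND5, a zinc finger protein that binds the proteasome and stimulates it, was at 390.0, 236 and 303 CPM in the basal biopsies of dogs 2, 3 and 4 and at 101 to 247 CPM in the insulin biopsies. In dogs 2, 3 and 4 it was lower in all 7 insulin biopsies than in the basal biopsy of the same dog, and only dog 1 sample 2 exceeded the lowest basal value. ZFAND5 was lower in insulin biopsies by 1.20 ± 0.15 on the log2 scale (SE, adjusted p = 0.00561 in edgeR). It passed in 11 of 13 fits with 1 library left out. It did not pass without the basal biopsy of dog 2 (adjusted p = 0.0556 in edgeR) or of dog 4 (0.0545). Nor did it pass without dog 2 (0.131), dog 3 (0.0804) or dog 4 (0.147), with no dog block (0.100) or on counts summed per dog (0.155). That gene was among those with known results when the list was drawn up. The others did not pass, with AKIRIN2, which carries proteasomes into the nucleus, at -0.23 ± 0.17, the ligase UBE3C at -0.25 ± 0.27, the inhibitor PSMF1 at 0.01 ± 0.13 and the deubiquitinase USP14 at 0.01 ± 0.14.

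Of 6 tested regulators 0 passed. NFE2L1, the factor that raises proteasome genes when proteasome activity is low, was at 292 ± 28.6 CPM in basal biopsies (SD, n = 3) and 267 ± 70.5 CPM in insulin biopsies (SD, n = 10), with a fold change of -0.08 ± 0.28 and its lowest value, 116 CPM, in dog 1 sample 2. Its relative NFE2L2 had a fold change of 0.32 ± 0.19, and their partners MAFG and MAFK had 0.47 ± 0.21 (unadjusted p = 0.0459, adjusted p = 1 in edgeR) and -0.27 ± 0.44. Of 13 ubiquitin, shuttle and unfoldase genes 0 passed; the polyubiquitin gene UBB had -0.04 ± 0.19, the shuttle factors RAD23B and UBQLN4 had -0.38 ± 0.40 and -0.25 ± 0.29, and the activating enzyme UBA1 had -0.25 ± 0.29. Of 10 class I presentation genes 0 passed, with IRF1, which drives the immunoproteasome genes, at 0.67 ± 0.47, the peptide trimming ERAP1 at 0.24 ± 0.18 and B2M, the class I light chain, at 0.18 ± 0.21. None of 10 muscle fibre, 11 leukocyte and 6 endothelial markers passed in insulin against basal; the leukocyte median was -0.29. At an unadjusted p under 0.05, MAFG and 2 leukocyte markers were reached in these lists, and DESeq2 called 0 of their genes. POMP, which matures the core, matched no row and was not analysed here.

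The sample numbers were compared next, with dog and sample number in the model. Sample 1 against sample 0 called no gene in edgeR (0% of all genes; 2.99% at an unadjusted p under 0.05), hence 0 of 35 members, of which 0 had an unadjusted p under 0.05. Its members' median log2 fold change was -0.06, with 8 positive and 27 negative, and it was 0.02 without dog 1 sample 2. Sample 2 against sample 0 called 0.0479% of all genes and 0 of 35 members, with a median of 0.20 (31 positive, 4 negative). Sample 2 against sample 1 called 0% of all genes and 0 of 35 members, with a median of 0.27 (31 positive, 4 negative). The medians over all tested genes were -0.01, -0.02 and -0.02. DESeq2 called 0 of 36 members in each of these comparisons. Its calls over all genes were 0.338% of 22765, 0.559% of 25207 and 0.381% of 25207 genes with an adjusted p, which include genes of low counts. Among the 14629 genes that passed the filter it called 41, 73 and 0. The comparisons of samples 1 and 2 with sample 0 share the basal libraries, and each shares its insulin libraries with the comparison of samples 2 and 1, so the values are set side by side and are not separate evidence.

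Only 1 member in each comparison that involves sample 2 had an unadjusted p under 0.05. In sample 2 against sample 0 it was PSMB10, with 0.49 ± 0.20 (adjusted p = 0.955 in edgeR), where 4.95% of all genes reached that level. In sample 2 against sample 1 it was PSME2, with 0.46 ± 0.20 (adjusted p = 0.902 in edgeR), where 3.38% did. PSMA7 was next in both, with 0.34 ± 0.19 and 0.36 ± 0.17, the latter 0.21 without dog 1 sample 2. In sample 1 against sample 0 the lowest p-values belonged to PSMA3 (-0.20 ± 0.19) and PSMD13 (-0.15 ± 0.14). With 1 library left out, PSMA3 ran from -0.33, without dog 4 sample 1, to -0.10, without dog 4 sample 0, and PSMD13 reached -0.07 without dog 4 sample 0.

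Markers of fibres and of other cells were set beside these comparisons, and none passed the test. In sample 2 against sample 1 the endothelial markers had a median log2 fold change of -0.66, with 5 of 6 negative, and their summed level was 145 to 267 CPM in sample 1 and 80.9 to 190 CPM in sample 2. Of 10 fibre markers 4 had an unadjusted p under 0.05 there, with fold changes running from -0.88 for MYH7 to 0.46 for MYL1. In sample 1 against sample 0 the endothelial median was 0.47, with 6 of 6 positive. In sample 2 against sample 0 the leukocyte median was -0.59, with 9 of 11 negative. Their part in the proteasome levels was not tested.

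Differences within each dog, on the scale of log2(CPM + 0.5), showed how unevenly the higher level in sample 2 was spread. From sample 1 to sample 2 the median over the 35 members was 0.65 in dog 1, 0.25 in dog 2, 0.11 in dog 3 and -0.08 in dog 4. The number of members higher in sample 2 was 32 of 35 in dogs 1 and 2, 25 in dog 3 and 11 in dog 4. Of all tested genes, 47.5%, 48.2%, 49.7% and 51.1% were higher there in dogs 1 to 4. The median over all tested genes stayed between -0.03 and 0.01 in every dog. Without dog 1 sample 2 the members' median in the model was 0.07 for sample 2 against sample 1, and 0.07 for sample 2 against sample 0. From sample 0 to sample 1 the per-dog medians were -0.21, 0.06 and 0.08 in dogs 2, 3 and 4, and dog 2 stood apart with 28 of 35 members lower. From sample 0 to sample 2 the medians were 0.10, 0.19 and 0.01. These per-dog differences depend on the TMM scaling. Scaled by the library total, the summed level in samples 1 and 2 was 4189 and 5073 CPM in dog 1 and 4117 and 4323 CPM in dog 2. It was 4365 and 4480 CPM in dog 3 and 4736 and 4948 CPM in dog 4. On that scale sample 0 was at 4130, 4439 and 4687 CPM in dogs 2, 3 and 4, so dog 2 hardly differed between samples 0 and 1.

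**Figure D3:**
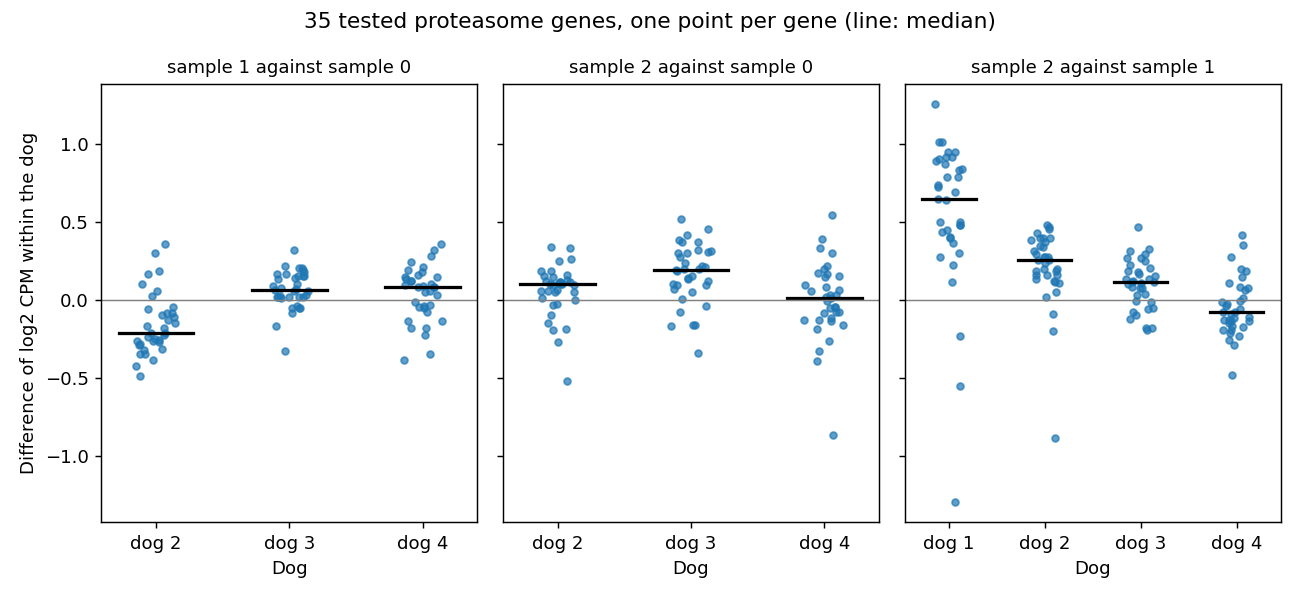
Difference of log2(CPM + 0.5) within each dog (y axis) for the 35 tested proteasome genes (1 point each), by dog (x axis), for sample 1 against sample 0, sample 2 against sample 0 and sample 2 against sample 1; black lines are medians. In the right panel the medians run from 0.65 in dog 1 to -0.08 in dog 4.

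Counts of members that kept one direction in every dog were set against the same share of all genes. From sample 0 to sample 2, 12 of 35 members (34.3%) were higher in each of dogs 2, 3 and 4, where 12.1% of all genes were: PSMA7, PSMB1, PSMB2, PSMB3, PSMB6, PSMB10, PSMC5, PSMD4, PSMD7, PSMD8, PSMD13 and PSME2. They come from the core, the ATPases, the base, the lid and PA28. In the opposite direction stood PSMD11 alone (11.8% of all genes). From sample 1 to sample 2, 8 of 35 (22.9%) were higher in all 4 dogs, against 7.02% of all genes, and 0 were lower, against 6.8%. Those were PSMB3, PSMB6, PSMB10, PSMC5, PSMD4, PSMD10, PSMD13 and PSME2. Without dog 1, the count higher in each of dogs 2, 3 and 4 was again 8 of 35, against 12.1%. From sample 0 to sample 1 the shares were near or below the background, with PSMB10 and PSMD1 higher (10.5% of all genes) and PSMD4 lower (10.8%). The members were measured in the same biopsies, so these counts are not independent observations, and no test was made of them. PSMB10 was the only member higher in every dog at both steps, from sample 0 to 1 and from 1 to 2, a pattern that 0.437% of all genes showed and that was looked for after its values were seen.

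PSME2, which builds the PA28 ring with PSME1, was at 23.0, 17.2 and 18.3 CPM in the basal biopsies of dogs 2, 3 and 4 and at 25.7, 18.4, 15.2 and 23.0 CPM in sample 1 of dogs 1 to 4. It was at 49.2, 24.0, 21.3 and 23.2 CPM in sample 2 and 27.2 and 28.5 CPM in sample 3 of dogs 1 and 2. Sample 2 was above sample 1 in each dog, by little in dog 4, and without dog 1 sample 2 the fold change between them was 0.23. Sample 3 was measured in only 2 dogs and was given no test of its own; its libraries entered the insulin group. As a description, the log2 ratio of the summed 20S genes to the summed 19S genes was highest there, at 0.00 in dog 1 and 0.06 in dog 2, against -0.41 to -0.07 in the other 11 libraries. The 19S sum includes PSMD9 and PSMD10, and both sums lack the symbols that matched no row. The levels are not corrected for length, so 0.00 does not mean equal amounts and only differences between libraries can be read.

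Differences between dogs were tested with the sample number in the model. Dog was here the tested factor and not a block, so these p-values weigh the dog means against the spread between repeated biopsies of the same animals. Of all tested genes, 458 of 14629 (3.13%) passed, and 1 of 35 members (2.86%) did, a share near the background. At an unadjusted p under 0.05 the shares were 15.6% of all genes and 5 of 35 members (14.3%), namely PSME1, PSMB10, PSMD2, PSME2 and PSMD3. The median SD of log2 CPM over the 13 libraries was 0.257 for members and 0.320 for all tested genes. Within the family the SD was smallest for PSMD9 (0.0910) and largest for PSME4 (0.507), PSMB9 (0.441), PSME1 (0.435), PSMB10 (0.416) and PSME2 (0.415), which are activator and immunoproteasome genes. The activator PSME3 had an SD of 0.241, below the members' median. In dog 1 sample 2 PSME4 had its lowest value, and PSMB9, PSME1, PSMB10 and PSME2 had their highest.

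PSME1 (ENSCAFG00000011924), the PA28 alpha subunit, was the member that passed. Its level in dog 1 was 112, 159 and 124 CPM in samples 1, 2 and 3. In dog 2 it was 67.2, 52.7, 59.0 and 75.9 CPM in samples 0 to 3. In dogs 3 and 4 it was 81.6, 90.7 and 102 CPM and 102, 98.2 and 98.0 CPM in samples 0, 1 and 2. All 4 values of dog 2 were below every value of the other dogs, and all 3 of dog 1 were above every value of the other dogs. Against dog 1 the log2 differences were -1.03 in dog 2, -0.47 in dog 3 and -0.35 in dog 4 (adjusted p = 0.0306 in edgeR). The call held in 5 of 13 fits with 1 library left out and was lost in 8, where adjusted p ran up to 0.135. The libraries whose absence ended it were sample 1 of dog 1 (adjusted p = 0.0796), samples 0, 1 and 2 of dog 2 (0.0770, 0.107 and 0.135), samples 1 and 2 of dog 3 (0.0766 and 0.0742) and samples 0 and 1 of dog 4 (0.0805 and 0.0678). Without dog 2 altogether the adjusted p was 0.528, without dog 3 0.0705, without dog 4 0.0820 and without dog 1 0.0428.

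Relative to the core, the dogs also separated on PSME1. The log2 ratio of PSME1 to the summed 20S genes, chosen after its values were seen, ran from -5.22 to -4.92 in dog 2, from -4.43 to -4.32 in dog 4, from -4.29 to -4.26 in dog 3 and from -4.20 to -3.99 in dog 1. Dog 1 sample 2, highest of all libraries for the PSME1 level, was the lowest of dog 1 on this ratio at -4.20, close to the -4.26 of dog 3 sample 1. PSME2, 1 gene away from PSME1 in the RefSeq order, did not put all the dogs in the same order. Dog 2, lowest for PSME1, had PSME2 at 23.0, 18.4, 24.0 and 28.5 CPM, while dog 3 had 17.2, 15.2 and 21.3 CPM. Dog 1, highest for PSME1, had PSME2 at 25.7, 49.2 and 27.2 CPM, above dogs 3 and 4 but overlapping dog 2. The summed leukocyte markers were at 71.0 to 122 CPM in dog 1, 47.4 to 118 CPM in dog 2, 70.8 to 187 CPM in dog 3 and 68.9 to 114 CPM in dog 4, ranges that all overlap. The summed endothelial markers were at 60.4 to 145 CPM, 79.7 to 267 CPM, 154 to 299 CPM and 115 to 190 CPM in that order, with dog 1 wholly below dog 3. The summed class I presentation genes were at 441 to 604 CPM, 358 to 494 CPM, 571 to 641 CPM and 462 to 532 CPM, with dog 3 wholly above dogs 2 and 4. Of 10 fibre markers, MYH1 and MYH2 differed between dogs, of 6 endothelial markers and 10 class I genes 0 did, and of 11 leukocyte markers 1 did. It was S100A12, at 3.07 to 6.41 CPM in dog 1 and 0.329 to 1.04 CPM in dog 2 (adjusted p = 0.00626 in edgeR). The part of these cells in the PSME1 levels was not tested.

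**Figure D4:**
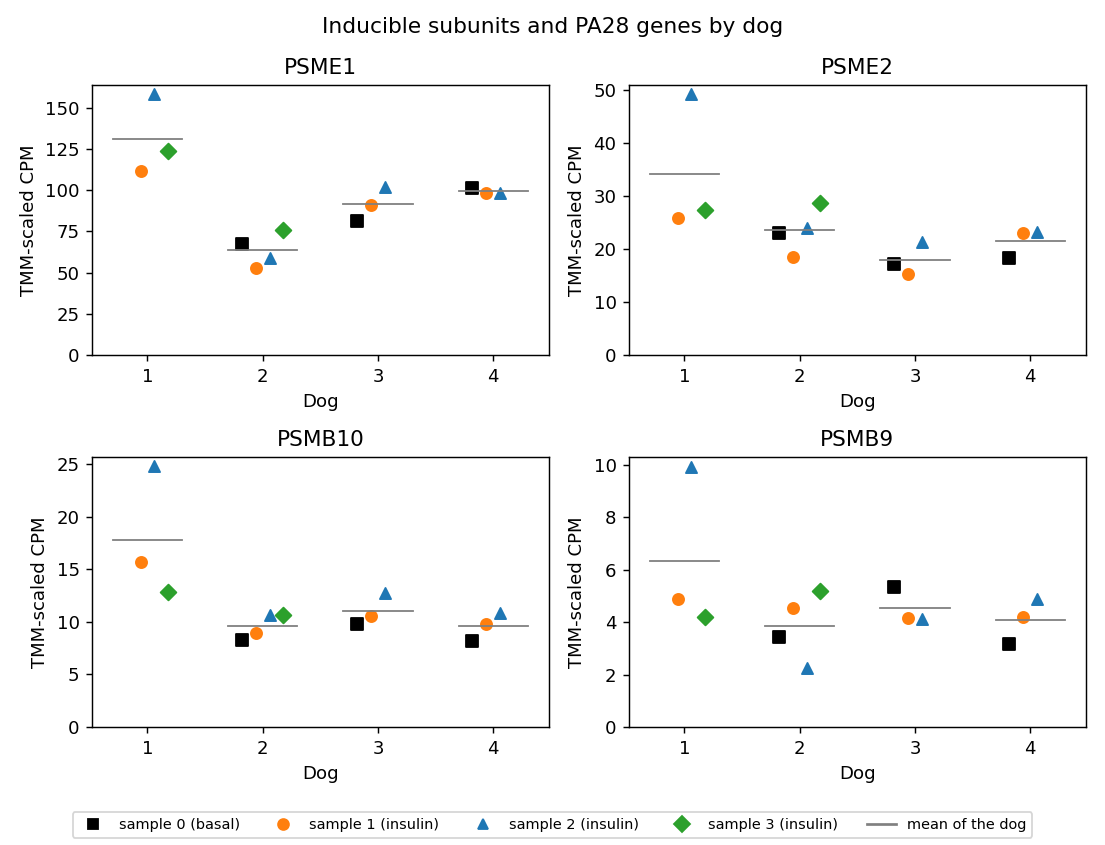
TMM-scaled CPM (y axes, from 0) of PSME1, PSME2, PSMB10 and PSMB9 by dog (x axis); marker shape and colour give the sample number and grey lines the mean of the dog. For PSME1, dog 2 lies at 52.7 to 75.9 CPM and dog 1 at 112 to 159 CPM. For PSME2, dog 1 lies above dogs 3 and 4 and overlaps dog 2, and for PSMB9 the dogs overlap.

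PSMB10 was second between dogs without passing (adjusted p = 0.115 in edgeR). Its values in dog 1, 15.7, 24.8 and 12.8 CPM, were above every value of dogs 2 and 4 and, to 3 digits, at or above the highest of dog 3, 12.8 CPM. PSMD2, with dog 4 high, had an adjusted p of 0.252, PSME2 one of 0.257 and PSMD3, a lid subunit, one of 0.304. Dog 4 also had the lowest ratio of summed 20S to summed 19S genes, at -0.41 to -0.35 (log2), below all 10 libraries of the other dogs, of which the nearest was dog 3 sample 0 at -0.34. The ratio was given no test. Among proteasome factors, the core chaperone PSMG3 was the 1 of 14 that differed between dogs (adjusted p = 0.0390 in edgeR), at 4.33, 3.69, 4.26 and 4.09 CPM in samples 0 to 3 of dog 2 against 5.91 to 8.64 CPM in the other dogs.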

How the data were processed

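RNA-seq libraries were made from flash-frozen dog muscle biopsies with SMART-Seq v4 and Nextera XT kits, which do not mark strand, per the labels' protocols. The submitters' processing notes name Bowtie 0.12.2 and CanFam3.1 without a role. The counter, annotation release, strand setting and treatment of reads shared by near-identical copies or overlapping genes are not given in the sources used here. Raw read counts deposited by the authors per gene were used for all tests. Beside them the authors deposited a size-factor normalized signal, used only to check columns.

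Tests used edgeR 4.0.16 under R 4.3.3 (filterByExpr, TMM, robust quasi-likelihood fits), with dog and stimulation, or dog and sample number, in the model, on all 13 libraries; DESeq2 1.42.0 was an alternative. Dog 1, without a basal library, entered insulin against basal only through the spread. Benjamini-Hochberg adjustment covered 14629 genes, at a threshold of 0.05. Fold changes are log2, with standard errors (SE) and 95% intervals from the quasi-likelihood degrees of freedom; differences within dogs used a pseudocount of 0.5 CPM.

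Between libraries sharing a dog, deviations from group means had a median r of 0.19 (15 pairs), and otherwise of -0.07 (47 pairs); the pairing comes from the dog numbers in the titles. Among pairs of libraries that share a dog or a sample number, none was a duplicate (chi-square per gene 31.8 or more). Other pairs were not checked.

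Members and lists were chosen with earlier results of these data known. Values in every library are given for members past the threshold, those of lowest p (4 in insulin against basal, 2 in each comparison of sample numbers, 3 between dogs), PSMB5 to PSMB10, PSME1 to PSME4 and PSMA8. From the other lists come genes past the threshold, up to 3 of lowest p, and NFE2L1, PSMF1, USP14, ZFAND5 and UBB; CD3E, CD68, S100A8, DES, MYH1, MYH7 and MYL1 were named after their values were seen. RefSeq gene names (assembly UU_Cfam_GSD_1.0) matched 36 of 36 members and served only for gene order.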

Additional observations from a re-analysis of the deposited data

Results flagged for a closer look

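In the groups of 4 libraries, samples 1 and 2, each member was checked for a library far from the other 3. The sums of all members, of the 20S genes and of the 19S genes were checked too, but not those of the smaller classes. The measure was the gap to the nearest neighbour as a share of the whole range. A library was marked where this share exceeded Dixon's critical value for 4 values at the 95% level. Of 78 checks 13 met this, where chance gives about 1 in 20, and the members are not independent of each other.

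In sample 1, dog 4 stood above the other dogs for 6 items. The gap was 0.842 of the range for PSMA2 (167 CPM), 0.856 for PSMC1 (212 CPM), 0.936 for PSMC2 (203 CPM) and 0.962 for PSME4 (41.2 CPM). It was 0.9003 for the summed 19S genes (2710 CPM) and 0.884 for all members summed (5044 CPM).

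In sample 2, dog 1 stood above the other dogs for 4 genes. The gap was 0.849 of the range for PSMB10 (24.8 CPM), 0.9501 for PSMD10 (29.0 CPM), 0.961 for PSMD14 (101 CPM) and 0.903 for PSME2 (49.2 CPM). Dog 3 was low for PSMD1 (199 CPM, 0.845 of the range).

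PSMA8 was counted in 1 library of each group, dog 2 in sample 1 (0.0267 CPM) and dog 3 in sample 2 (0.0186 CPM), so its gap was 1 times the range in both; these are a few reads each.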

How the results depend on the processing

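The insulin against basal count of members called was 0 under all 22 alternatives, and the median log2 fold change ran from 0.03 to 0.11, the latter with no replicate block for dog, where 0 members were called; the block changed no call of a member. Of the values for named genes 397 kept their direction and their side of the threshold under an alternative, 18 became weaker (ZFAND5 and PSME1) and 8 changed sign. The sign changes were in insulin against basal, in genes called neither before nor after: with 1 library or dog left out PSMB9 ran from -0.0691 to 0.363, PSME1 from -0.0747 to 0.0922 and PSME3 from -0.0279 to 0.0812. The median in sample 1 against sample 0 ran from -0.125, without dog 4 sample 1, to 0.0180, without dog 1 sample 2, where it changed sign. With 1 library or dog left out, the count of members that differed between dogs ran from 0 to 2 (1 with all libraries); PSMB5 joined PSME1 without dog 1 sample 2. With 1 library left out, the median in sample 2 against sample 0 ran from 0.0745, without dog 1 sample 2, to 0.27. The cause was not tested. Leaving out each dog was added for the dog comparison after the data were seen. Low counts limit PSMA8 and widen the interval of PSMB9, which had 122 to 658 counts per library.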
